A study of Mus musculus with 2 samples.

Results

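Wnt-high epithelial cells were followed here in single-cell RNA sequencing of mouse colon tumours. They are barcodes with epithelial keratin and Epcam transcripts, with little or no transcript of the leukocyte gene Ptprc, and with few transcripts of mitotic genes, in which transcripts of Sox11, Apcdd1, Wnt6 and Spock2 were found together. In numbers, a barcode needed at least 200 genes and under 20% mitochondrial UMIs (unique molecular identifiers, the molecules counted). It needed at least 10 UMIs of Epcam, Krt8 and Krt18 per 10000 and at most 1 UMI of Ptprc. Of Sox11, Apcdd1, Wnt6 and Spock2 it needed at least 2 UMIs per 10000 with at least 2 of the 4 genes detected, a sum called the Wnt score below. Mki67, Top2a, Esco2 and Fbxo5 together had to stay under 5 per 10000. The rule was met by 1304 of 14408 barcodes, of which 4959 were epithelial by the same limits.

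The study holds 2 libraries, 1 per genotype. The library labelled KO comes from animals with floxed Ecm1 alleles (ECM1Flox/Flox) and Villin-Cre, a Cre recombinase under a promoter active in intestinal epithelium. The library labelled WT comes from animals with the same floxed alleles and no Cre, so both groups carry the floxed gene. The title of the series places Ecm1, a secreted matrix protein, in neutrophil recruitment to colorectal tumours. The tumour model, the number of animals behind each library and their ages are not given in the sources used. The rule was met by 857 of 4896 barcodes of the library labelled KO and by 447 of 9512 of the one labelled WT. With 1 library per genotype no test of genotype was possible, and every interval below is a 95% interval that covers counting error only. Where values come in pairs, the first is of the library labelled KO and the second of WT.

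Wnt ligands bind Frizzled receptors and stop a complex of Axin, Apc and Gsk3 from destroying beta-catenin, which then enters the nucleus and turns on genes together with factors of the TCF and LEF family. Many of those genes encode inhibitors of the pathway itself, such as Axin2, Notum and Apcdd1, so a cell with strong Wnt signalling also carries transcripts of the brakes. In the intestine this signalling keeps the stem cells at the crypt base, which are marked by Lgr5, and mutations that hold it on are a common early step of colon tumours.

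The 4 genes of the score were not found equally often. Spock2, which encodes a secreted proteoglycan, was detected in 97.9% of the Wnt-high cells of the library labelled KO and 98.0% of those labelled WT, and it gave 72.5% and 79.3% of the UMIs in the score. Apcdd1, a membrane inhibitor of Wnt signalling, was detected in 78.4% and 81.7%, and the ligand gene Wnt6 in 77.0% and 62.6%. Sox11, a transcription factor of embryonic progenitors, was detected in 28.2% (25.2 to 31.4, exact Clopper-Pearson interval) and 26.0% (21.9 to 30.3), so the cells are called Wnt-high and not Sox11-positive below. All 4 genes were found in 21.9% and 17.2% of them. These values chose the cells and are given as a description.

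Depth and free RNA bear on such shares, so each barcode was also thinned to 5000 UMIs, which left out 70 and 45 Wnt-high cells that were shallower. At that depth Sox11 was detected in 16.7% and 17.2% of Wnt-high cells and in 0.319% and 0.417% of the other non-cycling epithelial barcodes. Sox11 is part of the score, so the difference between these sets was set by the selection. Sox11 was detected in 0.235% and 0.164% of barcodes with at least 2 UMIs of Ptprc and under the epithelial limit (Ptprc-positive barcodes below). Lgr5, which the rule did not use, was detected in 37.9% (34.5 to 41.4) and 36.3% (31.6 to 41.2) of Wnt-high cells, in 24.7% and 19.7% of the others, and in 0.469% and 0.164% of the Ptprc-positive barcodes. Without thinning, Lgr5 was detected in 65.8% and 61.3% of Wnt-high cells.

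Epithelial identity was weaker for some genes than the limits alone would show. Of the 7 epithelial markers that the rule did not use, 3 were at least 2-fold lower than in the other epithelial barcodes of both libraries. Cdx2, the homeobox factor of the intestinal lineage, stood at 3.71 and 1.76 counts scaled to library depth (CPM, UMIs of the gene per 1000000 UMIs of all Wnt-high cells of that library), against 20.7 and 14.04 in the others. Vil1, the gene whose promoter drives the Cre, stood at 62.6 and 63.0 CPM against 149 and 147. Epcam stood at 2709 and 1966 CPM. The labels do not say which barcodes are tumour cells, so the word tumour in the name was not checked. The Wnt scores had a median of 14.4 in the library labelled KO and 15.5 in the one labelled WT. The lowest scores inside were 2.005 in both, and the highest outside with at least 2 genes detected were 1.98 and 1.803. A further 289 and 330 non-cycling epithelial barcodes passed the score with only 1 gene detected and were not taken as Wnt-high cells. They stand among the 1495 and 1556 other non-cycling epithelial barcodes, the set used for comparison.

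The libraries differ in ways that touch every comparison between them. They held 75024663 and 59189995 UMIs over all barcodes, and the Wnt-high cells had medians of 18401 and 15717 UMIs and of 4893 and 4500 genes. The other non-cycling epithelial barcodes had medians of 13740 and 4200 UMIs. The libraries share 17 barcode sequences, of which 6 belong to Wnt-high cells of the library labelled KO and 0 to those labelled WT. Xist, transcribed from the inactive X chromosome, had 33009 UMIs in the Wnt-high cells labelled KO and 2 in those labelled WT, and the Y-linked Ddx3y had 0 and 808, so sex and genotype cannot be told apart.

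Ecm1, the targeted gene, was still found in Wnt-high cells labelled KO, at a lower level in the summed counts. Its levels by band of the Wnt score, where the gap was uneven, are given below. It stood at 28.0 CPM (25.7 to 30.4; 566 UMIs) against 46.9 (42.5 to 51.8; 401 UMIs), a ratio of 0.597 (0.524 to 0.680). In the other non-cycling epithelial barcodes the order was the opposite, with 59.8 CPM in the library labelled KO and 33.6 in the one labelled WT, where 5 barcodes held 31.2% and 9.55% of the UMIs. At 5000 UMIs per barcode Ecm1 was detected in 10.4% and 17.4% of Wnt-high cells, in 11.4% and 11.3% of the others, and in 24.2% and 20.2% of the Ptprc-positive barcodes. The flanked exons are not given, and UMIs counted near the end of the transcript can come from other exons, so the deletion itself was not checked by these values.

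Genes that restrain Wnt signalling were higher for the most part in the Wnt-high cells of both libraries. Here and below, Wnt-high cells are set against the other non-cycling epithelial barcodes of the same library (1495 labelled KO, 1556 labelled WT), and a gene is counted when its CPM differed at least 2-fold in the same direction in both libraries, with at least 50 UMIs in each. Of 12651 genes so measured, 773 (6.11%) were higher and 780 (6.17%) lower, and the median log2 ratio of all of them was 0.13 in the library labelled KO and 0.11 in the one labelled WT. In the libraries taken singly, 9.44% and 8.23% of genes were higher and lower labelled KO, and 7.79% and 9.38% labelled WT. The cells were chosen by score within this same contrast, so these counts are a description and nothing is read from them about chance. Levels of this contrast are given for Wnt-high cells and then for the other barcodes, first labelled KO and then labelled WT.

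Of 10 measured feedback inhibitors outside the rule, 7 were higher and 1 lower, with median log2 ratios of 1.73 and 1.58. Axin2, the inducible scaffold of the destruction complex, stood at 326 CPM (318 to 334) in Wnt-high cells and 122 (118 to 126) in the others of the library labelled KO, and at 370 (357 to 383) and 156 (150 to 162) in the one labelled WT. Nkd1, which binds Dishevelled, stood at 1053 and 219 CPM in the library labelled KO and at 609 and 201 in the one labelled WT. Notum, a secreted esterase that strips the lipid from Wnt ligands, stood at 396 and 91.2 CPM and at 320 and 101. The Wnt-high cells were above the others in both libraries for all 3 genes, and the intervals do not overlap. Over all genes, intervals that leave out a ratio of 1 were common. Labelled KO, 5961 of 13929 genes had an interval above 1 and 3635 below. Labelled WT, these were 4657 and 3023 of 12846, so separate intervals say little particular of these 3 genes.

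Secreted antagonists went the same way. Wif1, which binds Wnt ligands outside the cell, stood at 695 and 138 CPM in the library labelled KO and at 588 and 165 in the one labelled WT. Dkk2, of the Dickkopf family that blocks the LRP co-receptors, stood at 86.9 and 25.4 CPM and at 164 and 22.7. Dkk3, a family member whose link to Wnt is less direct, stood at 89.1 and 12.4 CPM and at 87.3 and 23.2. The ubiquitin ligase genes Znrf3 and Rnf43, which remove Frizzled receptors from the surface, were both higher, but only Znrf3 (81.7 and 25.3 CPM; 112 and 37.9) passed 2-fold in both libraries. Rnf43 had ratios of 1.96 and 1.79. Kremen2, a Dickkopf co-receptor, was the 1 lower member, at 1.93 and 11.2 CPM and at 1.29 and 8.88.

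**Figure D1:**
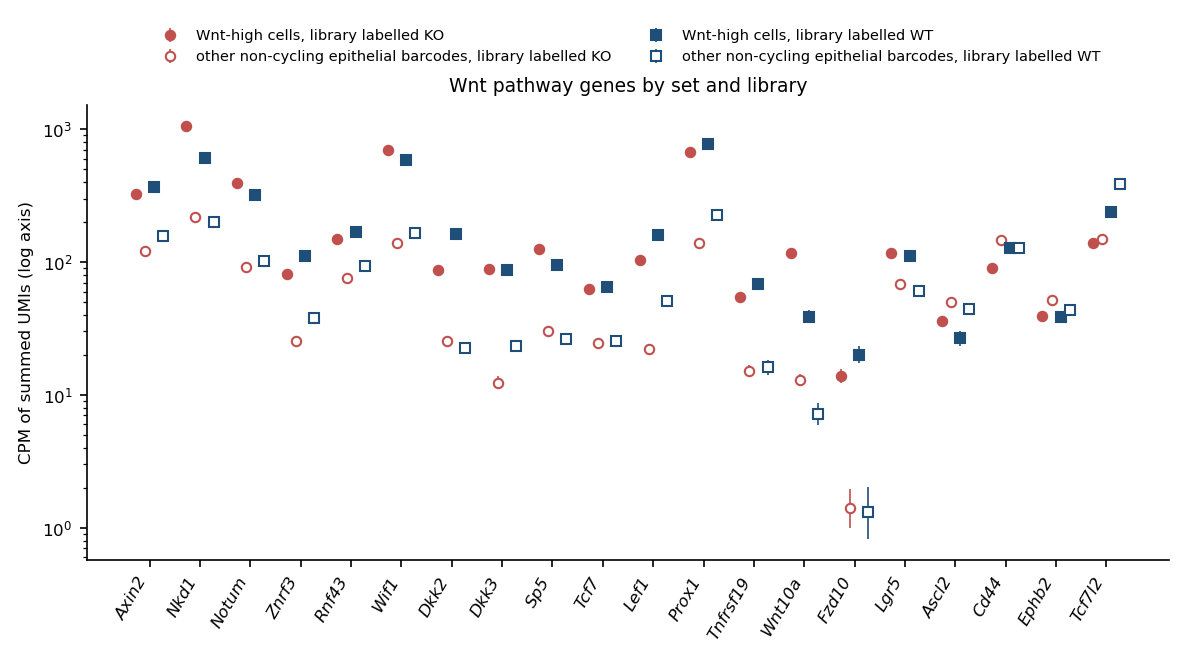
Levels of Wnt pathway genes in CPM on a log axis, for Wnt-high cells (filled) and other non-cycling epithelial barcodes (open) of the libraries labelled KO (red circles) and WT (blue squares); bars are exact Poisson 95% intervals. Filled symbols stand above open ones for Notum (396 against 91.2 CPM labelled KO), Nkd1 and Wif1, and below them for Ascl2 (36.3 against 50.4 CPM labelled KO).

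At 5000 UMIs per barcode Nkd1 was detected in 97.2% and 89.8% of Wnt-high cells, in 38.9% and 45.1% of the others, and in 5.40% and 2.63% of the Ptprc-positive barcodes. Notum was detected in 80.4% and 76.6%, against 28.2% and 31.9% of the others. Summed over the feedback list without Apcdd1, the median Wnt-high cell held 15 and 13 UMIs at this depth and the median other barcode 2 and 3. The 5 richest Wnt-high cells held 2.90% and 6.04% of the Notum UMIs.

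Among 20 transcription factors and surface proteins known as Wnt targets or partners, 5 were higher and 1 lower, and the medians of 0.01 and 0.03 lay below those of all genes. The 5 were Sp5, Tcf7, Lef1, Prox1 and Tnfrsf19. Sp5, a zinc finger factor, stood at 125.5 and 30.1 CPM in the library labelled KO and at 95.3 and 26.1 in the one labelled WT. Lef1, a partner of beta-catenin, stood at 103 and 22.2 CPM and at 159 and 50.5. Prox1, a homeobox factor tied to Wnt in colon tumours, stood at 668 and 140 CPM and at 770 and 226. Tcf7l1, the family member that mainly represses, was lower, at 9.11 and 37.6 CPM and at 9.01 and 26.4.

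Several targets often read as Wnt activity were not set apart. Myc stood at 61.9 and 51.4 CPM in the library labelled KO and at 87.8 and 84.7 in the one labelled WT. Cd44, an adhesion receptor, stood at 89.6 and 145 CPM and at 128 in both sets labelled WT, and its direction there turned under another scaling (log2 -0.09). Sox9, a factor of crypt progenitors, had ratios of 1.32 and 1.25, and Ascl2, a stem cell factor, had ratios below 1, of 0.720 and 0.610. None of these 4 genes passed 2-fold in both libraries.

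The promoters of 3 of the higher genes are shown because they hold a match to the sequence bound by TCF and LEF factors. The letters searched were CTTTGAT and CTTTGAA on both strands, in windows from 250 bases before to 50 bases after the annotated start, from RefSeq on GRCm38.p6, a different build from that of the counts. Capitals mark the match, and each sequence runs 5′ to 3′ along the gene's own strand. Spock2 lies at chr10:60106007-60106306 on the plus strand with its match 133 bases before the start, Sp5 at chr2:70474673-70474972 on the plus strand with its match 104 bases before, and Tnfrsf19 at chr14:61037938-61038237 on the minus strand with its match 202 bases before and read on the opposite strand.
Spock2: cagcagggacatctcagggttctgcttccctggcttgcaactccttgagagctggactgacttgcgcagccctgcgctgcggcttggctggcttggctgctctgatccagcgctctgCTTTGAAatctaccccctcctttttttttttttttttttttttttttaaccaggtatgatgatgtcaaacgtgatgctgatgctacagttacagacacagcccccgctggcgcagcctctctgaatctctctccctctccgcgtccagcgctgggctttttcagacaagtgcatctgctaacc
Sp5: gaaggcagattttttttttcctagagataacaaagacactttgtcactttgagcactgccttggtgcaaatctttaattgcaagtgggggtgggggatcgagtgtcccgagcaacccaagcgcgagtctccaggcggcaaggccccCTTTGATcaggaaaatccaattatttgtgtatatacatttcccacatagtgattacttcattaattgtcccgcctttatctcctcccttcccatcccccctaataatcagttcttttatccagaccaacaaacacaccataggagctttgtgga
Tnfrsf19: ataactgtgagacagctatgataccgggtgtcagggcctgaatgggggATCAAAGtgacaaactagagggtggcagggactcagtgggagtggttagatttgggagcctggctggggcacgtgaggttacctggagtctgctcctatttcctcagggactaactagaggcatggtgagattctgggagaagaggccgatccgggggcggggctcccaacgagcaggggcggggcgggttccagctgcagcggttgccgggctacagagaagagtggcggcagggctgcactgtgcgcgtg
Of all 32851 promoters in the table, 8.65% hold at least 1 such match. Of the 60 genes of the rule and of the Wnt feedback, target and ligand lists, 42 had a promoter in the table, and 8 of their 54 promoters hold a match. Among 13 of them that were at least 2-fold higher in both libraries and had a promoter, 4 of 21 promoters hold one. These belong to Spock2, Sp5, Tnfrsf19 (1 of its 2 promoters) and Wnt5b (1 of its 3). The 13 include Sox11, Wnt6 and Spock2 of the rule, whose excess was set by the selection, so 4 of 21 is a description only. A match is a description of these letters and not a measured binding site.

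Wnt ligands were few. Of 3 measured outside the rule, Wnt10a and Wnt5b were higher and Wnt3 lower. Wnt10a stood at 117 CPM (113 to 122) in Wnt-high cells and 13.0 in the others of the library labelled KO, and at 38.9 (34.8 to 43.3) and 7.24 in the one labelled WT. Wnt5b was low throughout, at 3.96 and 1.42 CPM and at 4.68 and 1.20. Wnt3, a ligand that Paneth cells make for the crypt base, stood at 1.19 and 6.32 CPM and at 2.34 and 10.1. Wnt6 stood at 155 and 6.90 CPM and at 86.6 and 2.27, but the rule used it, so its excess was set by the selection and is not counted.

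Of 15 measured Wnt receptors, Fzd3, Fzd10 and Ptk7 were higher and Fzd5 and Lgr6 lower, with medians of 0.26 and 0.30. Fzd10, a Frizzled receptor, had ratios of 9.84 and 15.2, from 13.95 and 1.42 CPM labelled KO and from 20.1 and 1.32 labelled WT. Fzd5, a Frizzled receptor needed by maturing Paneth cells, stood at 13.9 and 35.9 CPM and at 17.6 and 48.1. None of the 11 members of the destruction complex list passed 2-fold in either direction (medians 0.31 and 0.46). For a list of this size that count is near the shares of all genes. Ctnnb1, which encodes beta-catenin, had ratios of 1.522 and 1.501, and Apc of 1.21 and 1.42. The members past 2-fold thus lay among targets, secreted factors and receptors.

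Intestinal stem cell genes were divided. Of 19 measured, Msi1, Axin2 and Znrf3 were higher and Cdca7, Slc12a2, Lrig1 and Aqp4 lower, with medians of 0.50 and 0.32. Lgr5 stood at 117.5 CPM (113 to 122) in Wnt-high cells and 68.9 in the others of the library labelled KO, and at 110.1 (103 to 117) and 60.9 in the one labelled WT, ratios of 1.71 and 1.81 that did not reach 2-fold. Smoc2, a matrix protein of Lgr5 cells, had ratios of 1.81 and 1.62. Msi1, an RNA-binding protein of progenitors, stood at 19.1 and 5.67 CPM and at 38.7 and 12.2. Olfm4, a stem cell marker of the small intestine, had 0 UMIs in the Wnt-high cells labelled KO and 1 in those labelled WT.

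Fetal and embryonic genes were the other group with many higher members, 6 of 11 and none lower, with medians of 1.01 and 1.11. Ptn, the growth factor pleiotrophin, stood at 1086 and 90.1 CPM in the library labelled KO and at 946 and 162 in the one labelled WT. Hmga2, a chromatin protein of embryonic tissue, had ratios of 3.12 and 3.38. Igf2bp2, an RNA-binding protein, had ratios of 3.64 and 5.71, and Afp, alpha-fetoprotein, of 2.60 and 2.39 from levels of 5.79 and 6.32 CPM. In the SOX family Sox6, Sox12 and Sox18 were higher among 9 measured outside the rule. Sox4 had ratios of 1.72 and 1.58. Sox17 had ratios of 1.71 and 1.28, of which that labelled WT turned below 1 when Spock2 was left out of the score.

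The regenerative genes that mark injured or fetal-like epithelium went the other way in the summed counts. Of 17 measured, 0 were higher and 7 lower, with medians of -1.09 and -0.84. Ly6a, which encodes the surface protein Sca-1, stood at 72.5 and 566 CPM in the library labelled KO and at 119 and 716 in the one labelled WT. Il1rn, the interleukin-1 receptor antagonist, had ratios of 0.204 and 0.353. Per barcode the medians were close. At 5000 UMIs the median Wnt-high cell held 9 and 7 UMIs of this list, and the median other barcode 9 and 8. The upper quartiles lay further apart, at 12 and 12 UMIs in Wnt-high cells against 16 and 19 in the others.

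**Figure D2:**
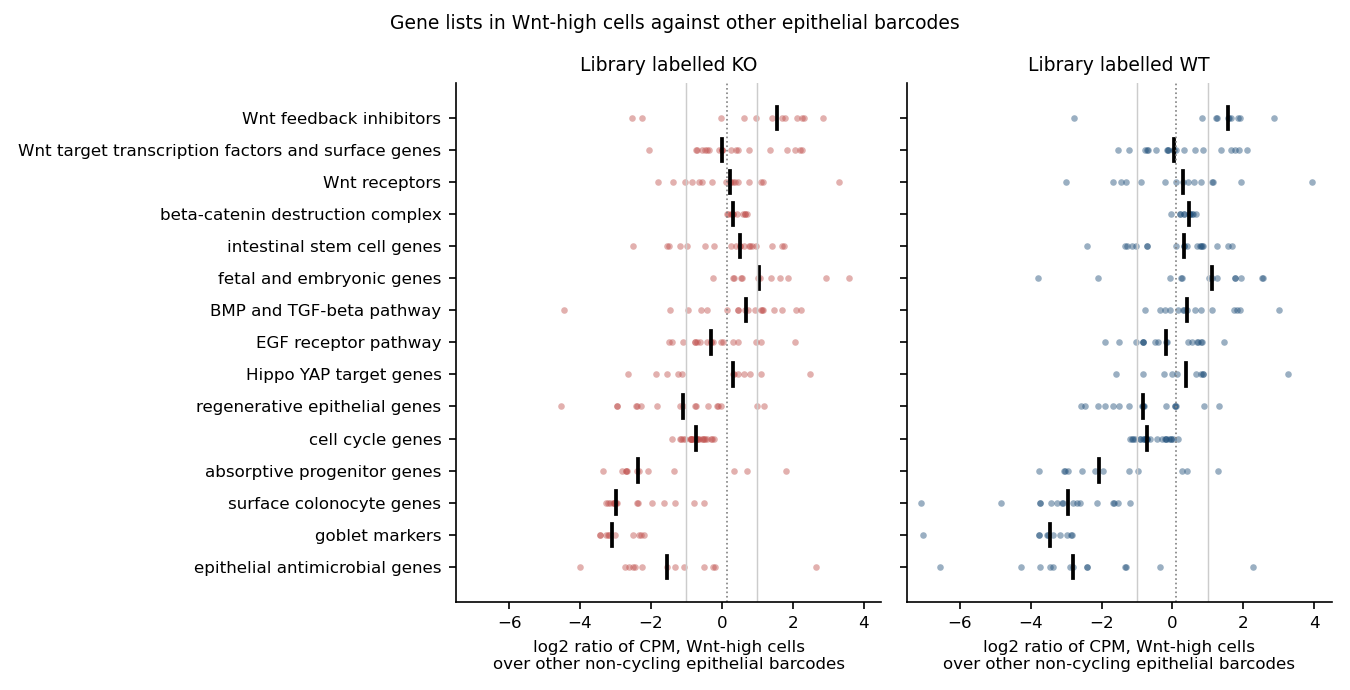
Log2 ratio of CPM in Wnt-high cells over other non-cycling epithelial barcodes for the genes of 15 lists measured in that library, 1 panel per library; each point is a gene, black bars are list medians, the dotted line is the median of all genes and grey lines mark 2-fold. Wnt feedback inhibitors lie mostly to the right and goblet markers, all 10 lower in both libraries, to the left.

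Genes of mature epithelium were lower in the summed counts for the most part. Of 15 surface colonocyte genes 13 were lower and 0 higher (medians -2.99 and -2.81), of 12 absorptive progenitor genes 8 and 1 (-2.37 and -2.08), of 10 goblet markers 10 and 0 (-3.09 and -3.44), and of 11 Paneth and defensin markers 8 and 0 (-2.01 and -2.81). Muc2, the main colon mucin, stood at 199 and 1604 CPM in the library labelled KO and at 122 and 1268 in the one labelled WT, where 5 barcodes held 67.6% and 75.0% of the UMIs of the Wnt-high cells. Krt20, a keratin of surface cells, stood at 6.68 and 64.3 CPM and at 15.1 and 128. Per barcode the picture differed. At 5000 UMIs the median Wnt-high cell held 0 UMIs of the goblet list in both libraries, and the median other barcode 2 and 1, with a 90th percentile of 158 and 256. For the absorptive list both sets had a median of 2, and for the Paneth list the median was higher in Wnt-high cells, at 6 and 7 against 2 and 4. A minority of rich barcodes among the others thus weighs in the summed ratios of the goblet and Paneth lists. The Paneth median sums all genes of its list, among them Pla2g2a, which is not a defensin and was spread over the Wnt-high cells. In the cells with and without Sox11, 5 barcodes held 9.35% and 4.76% of its UMIs labelled KO, and 17.8% and 7.996% labelled WT. The part of the defensins in the Paneth median was not tested. Slc9a3, the apical sodium and proton exchanger, was the 1 higher absorptive gene, at 151 and 43.2 CPM and at 222 and 92.0.

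Pla2g2a, a secreted phospholipase on the Paneth list, did not follow the defensins, at 684 and 287 CPM labelled KO and at 789 and 474 labelled WT. Among signalling lists, 5 of 15 BMP and TGF-beta genes were higher and 0 lower: Bmp7, Smad6, Tgfb2, Tgfb3 and Inhbb. Bmp7, a ligand, stood at 46.1 and 9.89 CPM and at 44.6 and 13.4, and Smad6, an inhibitory SMAD, had ratios of 2.15 and 2.17. Vim, the intermediate filament vimentin, was the only higher gene of 11 in the list of epithelial-mesenchymal transition, at 1197 and 165 CPM and at 507 and 88.1. Etv5, an ETS factor downstream of growth factor signalling, was the only higher gene of 17 in the EGF receptor list, at 120 and 28.8 CPM and at 184 and 66.8. Rrm2 alone of 25 cell cycle genes passed 2-fold, downward, in a list that overlaps the limit on mitotic genes in the rule.

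The 12 highest and 12 lowest genes outside the rule were taken by the weaker of their 2 interval bounds on the side of 1. Among the higher ones were Prss56, Cdh11, Tafa5, Pnliprp2, Tlx2, Fetub, Gbx2, Mdga2, Gulo and Rbm11. Pnliprp2, a lipase related to that of the pancreas, stood at 462 CPM (453 to 472) in Wnt-high cells and 22.0 in the others of the library labelled KO, and at 370 (357 to 383) and 37.4 in the one labelled WT. Mdga2, an adhesion protein of neurons, stood at 52.3 and 4.75 CPM and at 70.6 and 7.43. Several of these names belong to nervous tissue or embryonic patterning in the textbook, and here they were read in epithelial barcodes.

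Gulo, the last enzyme of vitamin C synthesis, stood at 36.6 and 1.65 CPM in the library labelled KO and at 19.9 and 1.70 in the one labelled WT. Tlx2 and Gbx2, homeobox factors, stood at 22.3 and 5.30 CPM labelled KO and at 18.5 and 12.1 labelled WT, with at most 1.32 CPM in the others. Cdh11, a cadherin of mesenchyme, had ratios of 19.1 and 17.7. With each barcode weighted equally the log2 ratio of Cdh11 labelled WT was 2.30 in place of 4.143, and that of Tlx2 labelled KO 2.47 in place of 4.601, so their size rested on barcode weighting and their direction did not.

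The lower ones were Clec2h, Spink4, Sval1, Muc3, Clca4b, Slc5a8, Lypd8, Muc2, Apob, Sycn, Ceacam1 and Phgr1. Of these, Muc2 and Spink4 are on the goblet list, Muc3 and Ceacam1 on the surface colonocyte list and Slc5a8 on the absorptive list. Lypd8, a secreted protein that keeps bacteria off the colon surface, stood at 272 and 2187 CPM in the library labelled KO and at 560 and 4774 in the one labelled WT. Slc5a8, a transporter of short-chain fatty acids, stood at 4.90 and 49.7 CPM and at 1.99 and 26.9. Ceacam1, an adhesion protein of surface cells, stood at 40.8 and 337 CPM and at 49.8 and 480. Apob, of lipoprotein secretion, had 6 and 1 UMIs in the Wnt-high cells.

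Within the Wnt-high cells several of the genes higher in them followed the score, of which Spock2 gave 72.5% and 79.3% of the UMIs. Cells were placed in bands of 2 to 5, 5 to 10, 10 to 20 and at least 20 score UMIs per 10000, with 138, 180, 241 and 298 cells labelled KO and 64, 90, 126 and 167 labelled WT. Notum stood at 199.8, 284, 383 and 636 CPM from the lowest band to the highest in the library labelled KO, and at 169.8, 205, 306 and 505 in the one labelled WT. Lgr5 stood at 95.3, 91.3, 115 and 155 CPM labelled KO and at 56.6, 78.4, 111 and 164 labelled WT. Pnliprp2 had the widest span of the plotted genes, from 33.3 to 1177 CPM and from 55.3 to 965. Ecm1 stood at 36.8, 30.8, 26.75 and 20.8 CPM labelled KO and at 46.5, 36.3, 48.3 and 54.15 labelled WT. The Ecm1 intervals of the libraries overlap in the bands of 2 to 5 and 5 to 10, and not in the higher bands.

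Ascl2 and Cd44 stood lower in the higher bands, and Sox9 stood higher. Ascl2 stood at 51.3 CPM in the lowest band and 24.2 in the highest of the library labelled KO, and at 45.9 and 15.4 in the one labelled WT. Cd44 stood at 118 and 60.1 CPM and at 214 and 94.03. Sox9 stood at 283 and 403 CPM labelled KO and at 559 and 715 labelled WT. Cdx2 stood at 7.26 and 0.340 CPM labelled KO, and at 3.77 (1.39 to 8.21) and 1.46 (0.399 to 3.75) labelled WT, where the intervals overlap and rest on 6 and 4 UMIs. Sox4 showed no such order, at 1195, 1085, 1159 and 1022 CPM labelled KO and at 1140, 1317, 1321 and 1192 labelled WT. Dkk2 labelled KO was also out of order, at 74.5, 58.9, 103 and 101 CPM. Muc2 went opposite ways, at 439 CPM in the lowest band and 48.2 in the highest labelled KO, and at 61.6 and 138 labelled WT. The bands were cut on the rule's own score, and their median depths went from 23640 to 16650 UMIs labelled KO and from 20140 to 13060 labelled WT, so the order is a description and the part of depth in it was not tested.

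**Figure D3:**
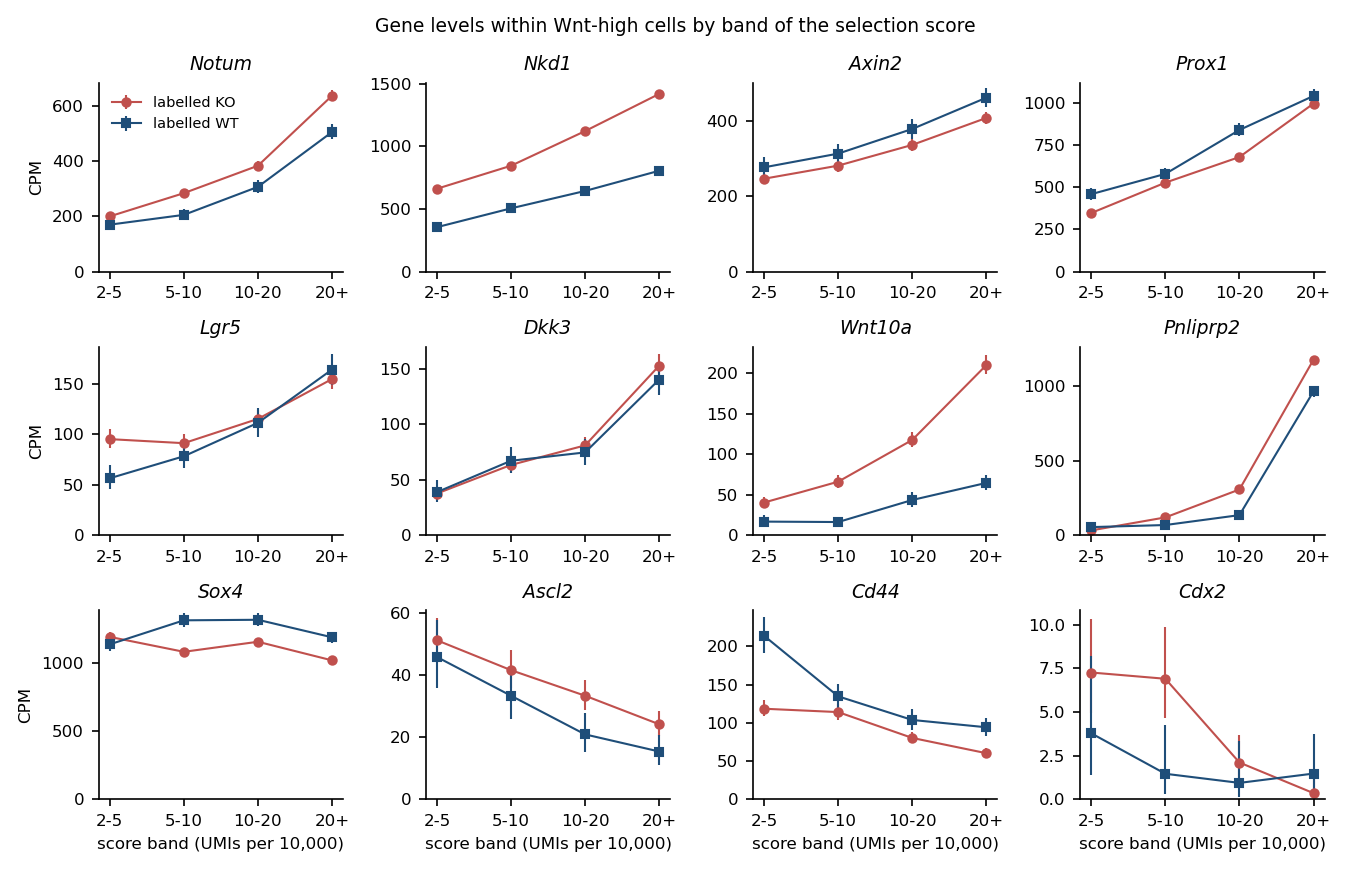
Levels of 12 genes in CPM over 4 bands of the Wnt score within Wnt-high cells of the libraries labelled KO (red) and WT (blue); bars are exact Poisson 95% intervals and each panel starts at 0. Notum and Pnliprp2 stand highest in the top band in both libraries, whereas Ascl2 stands lowest there, at 24.2 CPM labelled KO and 15.4 labelled WT.

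Sox11 itself marked a minority. The 242 and 116 Wnt-high cells with a Sox11 UMI were deeper than the rest, with medians of 21085 and 16509 UMIs against 17887 and 15453. Between these sets 45 of 10235 measured genes (0.44%) were at least 2-fold higher and 24 (0.234%) lower in both libraries. Dkk2 stood at 152 CPM with Sox11 and 56.0 without in the library labelled KO, and at 350 and 74.8 in the one labelled WT. Igf2bp2 stood at 17.9 and 5.04 CPM and at 40.5 and 11.9, and Wnt10a at 192 and 81.5 CPM and at 63.6 and 27.0. These 3 genes also belonged to the higher members of the lists above.

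Meis2, a homeobox factor, had ratios of 2.20 and 2.63 between the cells with and without Sox11, and Cxcl5, a ligand of the neutrophil receptor CXCR2, of 1.99 and 2.63. Rgcc, a regulator of the cell cycle, stood at 41.4 CPM with Sox11 and 90.7 without in the library labelled KO, and at 20.6 and 55.2 in the one labelled WT. Of 9 measured feedback inhibitors 1 was higher, Dkk2, and of 18 stem cell genes 0 were higher and 1 lower (medians -0.32 and -0.25). Sox11 is part of the score, and Apcdd1, another gene of the score, had ratios of 2.10 and 1.65 between the cells with and without it. Detection of Sox11 also depends on depth. The parts of score and depth in these differences were not tested.

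The Wnt-high cells were also split by Lgr5. The 564 and 274 cells with an Lgr5 UMI had medians of 20805 and 17248 UMIs, and the 293 and 173 without had 14486 and 11761. Of 10235 genes 14 (0.137%) were at least 2-fold higher and 16 (0.156%) lower in both libraries. Cd177, a surface protein otherwise known from neutrophils, stood at 254 CPM with Lgr5 and 90.8 without in the library labelled KO, and at 206 and 68.5 in the one labelled WT. Igf1, a growth factor, stood at 38.4 and 6.34 CPM and at 22.4 and 8.40. Wfdc18, a small secreted protein, stood at 5657 and 2385 CPM and at 6635 and 3476, ratios of 2.37 and 1.91.

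Mal, a membrane sorting protein, stood at 7.12 CPM with Lgr5 and 32.5 without in the library labelled KO, and at 3.73 and 13.0 in the one labelled WT. Cdkn2a, the cell cycle inhibitor locus, stood at 29.8 and 69.9 CPM and at 19.5 and 43.7. Cxcl5, unlike in the Sox11 split, was lower in the cells with Lgr5, at 76.0 and 288 CPM and at 101 and 184. None of 9 measured feedback inhibitors passed 2-fold in both libraries (medians -0.06 and 0.05). Beside the shares of all genes given above, that count says nothing particular of the list.

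Lgr5 was not limited to the Wnt-high cells. Another 460 and 296 non-cycling epithelial barcodes held an Lgr5 UMI but did not meet the rule, and since a UMI chose them their Lgr5 level was high, at 156 and 169 CPM. They are the population most like the Wnt-high cells in depth, with medians of 20146 and 17091 UMIs. Their Wnt scores differed between the libraries, with medians of 0.225 and 1.35 and upper quartiles of 1.59 and 9.20. Those that passed the limit of 2 on the score had only 1 gene of the score detected. The ratios below thus compare with unlike sets in the 2 libraries, and the part of this in them was not tested. Axin2 stood at 326 CPM in Wnt-high cells and 174 in these barcodes of the library labelled KO, and at 370 and 243 in the one labelled WT. Notum had ratios of 3.001 (2.84 to 3.17) and 2.11 (1.96 to 2.28), Wif1 of 3.41 and 2.09, and Prox1 of 3.03 and 1.92. Of the 10 measured feedback inhibitors all but Kremen2 (0.256 and 0.307) had ratios above 1 in both libraries, down to 1.39 and 1.29 for Rnf43.

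Ascl2 was lower in the Wnt-high cells than in these Lgr5-detected barcodes, with ratios of 0.543 (0.490 to 0.601) and 0.446 (0.375 to 0.528), and Cdx2 likewise, with 0.290 and 0.245. Smoc2 (1.04 and 0.818) and Sox9 (1.03 and 0.818) were near 1. The barcodes outside the rule were chosen by an Lgr5 UMI, whereas 293 and 173 of the Wnt-high cells had none. The part of that choice in these ratios was not tested. Pnliprp2 had ratios of 12.8 and 4.94, so this gene was also low in Lgr5-detected barcodes outside the rule.

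A further 106 and 51 epithelial barcodes met the Wnt score but exceeded the limit on mitotic genes. They had medians of 36412 and 22864 UMIs. In CPM, Axin2 had ratios of cycling over non-cycling Wnt-high cells of 0.891 (0.838 to 0.948) and 0.842 (0.757 to 0.933), and Nkd1 of 0.834 and 0.856. Sox11 had ratios of 0.362 and 0.400, and Wnt10a of 0.334 and 0.333. Ascl2 was the reverse, with 1.44 (1.23 to 1.67) and 1.67 (1.23 to 2.24), beside Ccnb1, a mitotic cyclin, with 16.6 and 15.6. Both sets were chosen by the score, which Sox11 is part of, and the median score of the cycling set was lower, at 7.60 and 7.71 against 14.4 and 15.5. These ratios are therefore a description, and the parts of score and depth in them were not tested.

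Wnt-high cells took a larger share of the epithelial barcodes in the library labelled KO. The share was 31.4% (29.7 to 33.2; 857 of 2726) against 20.0% (18.4 to 21.7; 447 of 2233), a ratio of 1.57 (1.42 to 1.74). Deeper barcodes meet the score more easily, and the epithelial barcodes had medians of 17496 and 8116 UMIs. With each barcode thinned to 5000 UMIs, which left out 690 and 953 shallower ones, the shares were 25.9% (24.0 to 27.8) and 20.2% (17.99 to 22.5), a ratio of 1.28. The same barcodes without thinning gave 38.7% and 31.4%. The share labelled KO stayed above the one labelled WT under each setting run, and the difference is between 2 libraries with no replicate.

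**Figure D4:**
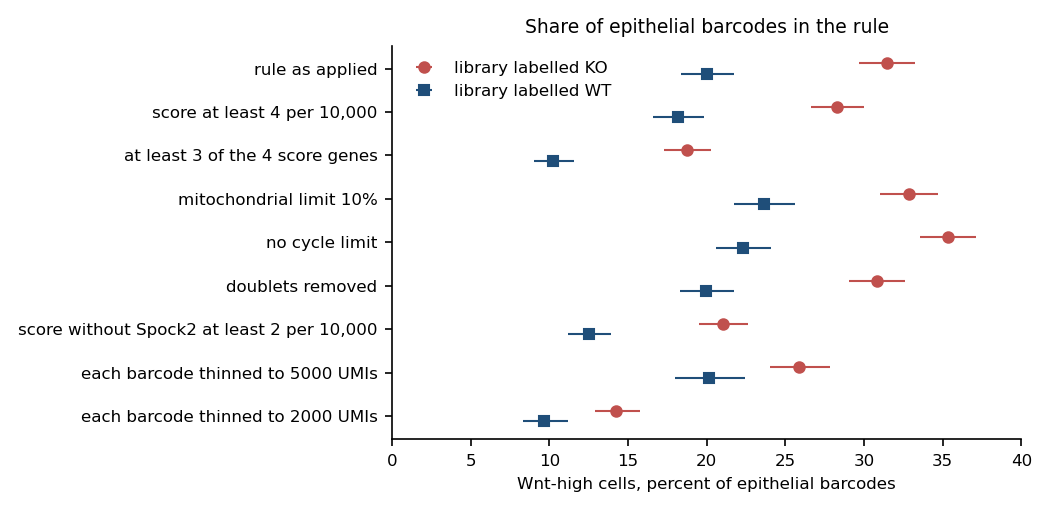
Wnt-high cells as a percent of epithelial barcodes under the rule and under 8 other settings, for the libraries labelled KO (red) and WT (blue); bars are exact Clopper-Pearson 95% intervals. The library labelled KO lies to the right at every setting, with 31.4% against 20.0% under the rule and 25.9% against 20.2% at 5000 UMIs per barcode.

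Between the libraries, the Wnt genes of the Wnt-high cells differed by less than 2-fold for the most part, as did genes at large. A minority of interferon, chemokine and hypoxia genes was lower labelled KO. Of 12985 genes with at least 50 UMIs over both libraries, 413 (3.18%) were at least 2-fold higher labelled KO than labelled WT and 558 (4.3%) lower. The median over all of them was 0.01 on the log2 scale. Of 10 feedback inhibitors 0 passed 2-fold (median -0.07), of 20 Wnt targets 0 (-0.26) and of 11 destruction complex genes 0 (-0.25). Beside the shares of all genes, these counts say nothing particular of the lists. Nkd1 had a ratio of 1.73 (1.68 to 1.78) and Dkk2 of 0.531 (0.494 to 0.570), the widest apart of the feedback genes. Axin2 had 0.881 and Notum 1.24.

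Single members of the pathway stood out from those groups. Wnt10a stood at 117 CPM in the library labelled KO and 38.9 in the one labelled WT, a ratio of 3.02 (2.69 to 3.395), and Wnt6, which the rule used, had 1.79. The receptors Fzd2, Fzd8 and Lgr6 had ratios of 2.14, 2.79 and 3.11, from 30 UMIs of Fzd2, 10 of Fzd8 and 11 of Lgr6 in the library labelled WT. Lgr5 had a ratio of 1.07 (0.989 to 1.15) that was below 1 with each barcode weighted equally (log2 -0.03). Smoc2 stood at 233 and 106 CPM (2.20), Msi1 at 19.1 and 38.7 (0.493), Sox9 at 344 and 674 (0.511) and Hes1, a target of Notch, at 897 and 406 (2.21). Vim stood at 1197 and 507 CPM (2.36).

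Interferon-stimulated genes had a median log2 ratio of -0.63, with 5 of 16 lower and 0 higher. Ifit1 stood at 26.8 CPM (24.6 to 29.2) in the library labelled KO and 145 (137 to 154) in the one labelled WT, and 5 barcodes held 42.1% and 49.9% of its UMIs. Isg15, a ubiquitin-like modifier, stood at 20.1 and 49.7 CPM. Rsad2, an antiviral enzyme, had a log2 ratio of -3.20, and of -1.86 without the 5 barcodes of each library richest in it. Usp18, which removes Isg15 from proteins, did not follow, with 42.8 and 38.2 CPM.

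Of 10 chemokine and cytokine genes 3 were lower and 0 higher (median -0.60), and of 14 hypoxia and glycolysis genes 3 and 0 (-0.38). Cxcl1, a ligand of CXCR2, stood at 233 CPM (227 to 240) in the library labelled KO and 398 (384 to 411) in the one labelled WT, a ratio of 0.586 that did not reach 2-fold. Cxcl2, of the same family, stood at 266 and 619 CPM, a ratio of 0.429 (0.413 to 0.446). Cxcl5 did not follow, with 127 and 124 CPM, and Ppbp, with 24 and 56 UMIs, lost its difference without its 5 richest barcodes (log2 -0.02). Vegfa, the vascular growth factor, stood at 28.1 and 74.9 CPM (0.375), and Bnip3, a mitochondrial protein induced by hypoxia, at 35.6 and 84.7 (0.420).

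Sqstm1, named in the title of the series as a partner of Ecm1 and known as the autophagy receptor p62, stood at 142 CPM (137 to 148) in the library labelled KO and 189 (180 to 199) in the one labelled WT, a ratio of 0.753 (0.708 to 0.8004). None of 18 autophagy genes passed 2-fold (median 0.15), a count that says nothing particular of the list beside the shares of all genes. Optn, another autophagy receptor, had a ratio of 1.40. Targets of YAP were lower for Ccn2 (5.59 and 20.2 CPM), Ankrd1 (7.47 and 23.5) and Amotl2 (29.5 and 76.9), 3 of 10 with 0 higher. Labelled WT, 5 barcodes held 73.9% of the Ccn2 UMIs of the cells with Sox11, and 5 held 59.3% in those without. These shares were 55.1% and 67.6% for Ankrd1, and 24.1% and 14.1% for Amotl2. Of 12 antimicrobial genes 3 were higher and 5 lower (median -0.80), and Lcn2, which binds iron carriers of bacteria, stood at 685 and 1369 CPM.

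Markers of other cells differed between the libraries as well. Of 7 neutrophil markers 5 were lower in the library labelled KO and 0 higher (median -1.61), and their summed level was 173 and 506 CPM in Wnt-high cells, with 0 of 10 genes at 0 in either library. In the other epithelial barcodes that sum was 205 and 1236 CPM. Mast cell markers summed to 48.7 and 124 CPM, and those of B and plasma cells to 2106 and 3659, of which Igkc alone had 81.2% and 95.1% of its UMIs in 5 barcodes. Fibroblast markers summed to 82.3 and 14.9 CPM, with 5 of 5 higher, and endothelial markers to 68.4 and 31.5, with 5 of 8 higher and Kdr and Tie1 at 0 in the library labelled WT. Erythroid markers summed to 54.0 and 189 CPM, whereas macrophage markers (89.6 and 98.6) and T cell markers (22.3 and 22.2) were close. The part of such RNA in the differences between the libraries was not tested.

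**Figure D5:**
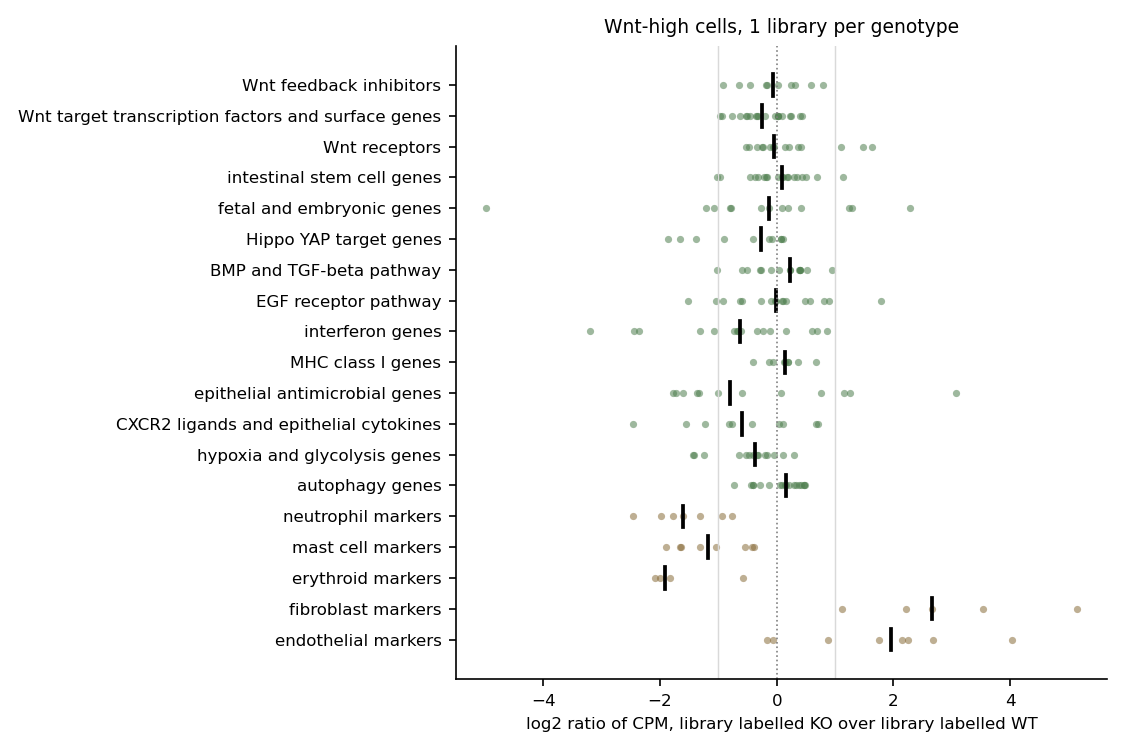
Log2 ratio of CPM in Wnt-high cells, library labelled KO over library labelled WT, for the measured genes of 19 lists; each point is a gene, black bars are list medians, and lists of markers of other cells are in brown. Wnt lists centre near 0 (feedback median -0.07), interferon genes lie lower (-0.63), neutrophil markers lower still (-1.61) and fibroblast markers higher (2.67).

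The genes named by size were taken by the interval bound nearest to 1 among those not concentrated in 5 barcodes. The 10 higher in the library labelled KO were Plvap, Gria3, Sod3, Serpinh1, Thbs4, Tmem252, Muc3, Mtus2, Lmcd1 and Zcchc3. Serpinh1, the collagen chaperone, stood at 38.4 CPM (35.7 to 41.2) in the library labelled KO and 7.37 (5.67 to 9.44) in the one labelled WT. Gria3, a glutamate receptor subunit, had 58 and 0 UMIs and was at least 6.44-fold higher, the lower limit of the exact interval, in which the floor of 3 counts was not used. Plvap, an endothelial marker on the list above, had 232 and 6 UMIs, and 5 barcodes held 46.55% of those labelled KO. Muc3, a membrane mucin, stood at 59.1 and 13.5 CPM, with 38.4% and 86.1% of its UMIs in 5 barcodes.

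The 10 lower were Mdk, Osm, Ifit1, Ncapg2, Ptgs2, Nlrp3, Lpcat4, Sprr1a, Ulk4 and Nppb. Mdk, the growth factor midkine, had 15 UMIs labelled KO and 201 labelled WT, a ratio of 0.0316 (0.0173 to 0.0533), while Ptn, its relative, had a ratio of 1.15. Ncapg2, a condensin subunit, stood at 14.9 and 81.6 CPM in Wnt-high cells and at 11.8 and 76.3 in the others. All of the genes named here and in the list of higher ones lay in the same direction in the other barcodes except Sprr1a, with 6.83 and 28.9 CPM in Wnt-high cells and 42.7 and 22.2 in the others. Lpcat4, a phospholipid enzyme, stood at 21.1 and 82.4 CPM and Nppb, a natriuretic peptide, at 17.8 and 65.8. Ptgs2, the inducible cyclooxygenase, stood at 4.404 and 26.4 CPM. Osm and Nlrp3 are known from myeloid cells and stood at 1.98 and 14.1 CPM and at 1.98 and 10.4. Labelled WT, 5 barcodes held 50% of the Osm UMIs and 24.7% of the Nlrp3 UMIs.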

How the data were processed

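Single-cell RNA libraries of mouse colon tumours were analysed, 1 per genotype. The deposited files hold raw UMI counts per gene and barcode, made by the authors with Cell Ranger 7.2.0, per the file headers, on GRCm39, per the submitters' processing notes. The capture chemistry, the reference annotation and any removal of doublets are not given in the sources used. Barcodes were kept at 200 or more genes and under 20% mitochondrial UMIs, and the Wnt-high cells were then found by the rule in the report. Counts were summed over the barcodes of each set and library and scaled to 1000000 (CPM), so deep barcodes weigh more. Levels are not corrected for gene length and were not compared between genes. Intervals are exact: Poisson for levels, conditional binomial for ratios and Clopper-Pearson for shares, all at 95% and for counting error only.

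A gene was measured with at least 50 UMIs over the sets compared and counted past 2-fold; a gene at 0 was set at a floor of 3 counts. With 1 library per genotype no p-value was computed. Named genes were the 12 each way between sets and the 10 each way between libraries with the interval bound nearest to 1 farthest out, leaving out genes of the rule, ribosomal, mitochondrial, immunoglobulin and similar classes, and genes with over 50% of the higher side's UMIs in 5 barcodes; some of the genes so chosen are not reported here. The 41 gene lists hold 546 genes, of which 543 were found. The members and the lists were chosen with earlier results of these data known. Doublets stayed in; the automatic call of Scrublet marked 2 and 0 barcodes, so the alternative removed the highest scores at 0.8% per 1000 barcodes, 154 in the library labelled KO and 633 in the one labelled WT. Other alternatives were thinning, other limits of the rule, scaling and weighting. The calculation of ratios was tested on simulated data. Tools were Python 3.11.15, numpy 2.4.6, scipy 1.17.1, pandas 2.3.3, scanpy 1.11.5 and matplotlib 3.10.9.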

Additional observations from a re-analysis of the deposited data

How the results depend on the processing

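No paired analysis was possible because each genotype has 1 library, and for the same reason no replicate could be left out. The share of Wnt-high cells among epithelial barcodes, 31.4% labelled KO and 20.0% labelled WT under the rule, was 14.3% and 9.66% at 2000 UMIs per barcode, 28.3% and 18.1% with a score of at least 4, 18.8% and 10.2% with 3 of the 4 genes, 35.3% and 22.3% without the limit on mitotic genes, and 21.0% and 12.5% with Spock2 left out of the score. It was 25.9% labelled KO at 5000 UMIs and 23.6% labelled WT with a mitochondrial limit of 10%. The ratio of the shares, 1.57, was 1.28 at 5000 UMIs, 1.84 with 3 of the 4 genes and 1.39 with the mitochondrial limit of 10%.

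Counts of genes followed the thresholds. Those higher and lower in Wnt-high cells of both libraries, 773 and 780, were 1377 and 1266 from 1 UMI on, and 1691 and 1318 at 1.5-fold. Those higher and those lower labelled KO than labelled WT, 413 and 558, were 691 and 1017 from 20 UMIs on, 273 and 328 from 100, 1227 and 2066 from 1, and 1482 and 1548 at 1.5-fold; the lower ones were 347 without the 5 barcodes richest in each gene. The median log2 ratio of the feedback inhibitors measured in each library alone, 1.555 labelled KO and 1.58 labelled WT, was 1.27 and 1.20 with 3 of the 4 genes, 1.19 and 1.25 from 1 UMI on, and 1.29 and 1.35 without Spock2. Labelled KO it was 1.72 with Ptprc at 0, 1.73 without doublets, 1.42 with median of ratios scaling, 1.19 from 20 UMIs on and 1.69 from 100; labelled WT it was 1.801 with each barcode weighted equally. The log2 ratio of Ecm1, -0.745, was -0.99 without Spock2. None of these reversed, and where the cause is not the threshold itself it was not tested. Leaving Spock2 out was chosen after seeing the data, as were leaving out the shared barcodes and a limit of 5000 UMIs, which moved none of these results. Depth limits what can be said of low genes: 3 counts in the Wnt-high cells labelled WT are 0.351 CPM.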

Other observations

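Other lists were compared between the Wnt-high cells and the other non-cycling epithelial barcodes. Of 4 enteroendocrine markers 3 were lower in both libraries (median log2 ratios -4.40 and -4.31). Of 18 interferon genes 2 were higher in both libraries and 3 lower: Usp18 stood at 42.8 and 4.44 CPM in the library labelled KO and at 38.2 and 11.6 in that labelled WT. Of 18 autophagy genes Optn and Calcoco1 were higher and 0 lower, and Optn stood at 89.7 and 28.2 CPM and at 64.2 and 28.0. None of 9 MHC class I genes passed 2-fold in both libraries (median log2 ratios 0.10 and -0.09), which for so short a list is near the shares of all genes. Of 12 Notch pathway genes 0 were higher, and Notch4 and the ligand Dll1 were lower. Of 12 antimicrobial genes 8 were lower (medians -1.90 and -2.61) and Lcn2 alone was higher, at 685 and 108 CPM labelled KO and at 1369 and 283 labelled WT. Csf1, the macrophage growth factor, was the higher member of 9 chemokine and cytokine genes, at 36.7 and 11.4 CPM and at 34.1 and 10.0. Ankrd1 was higher and Crim1 lower among 10 YAP targets.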
